A study of Mus musculus with 8 samples.

Results

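CpG cytosines on the unplaced and random contigs of the mouse genome were examined in the dentate gyrus of mice that self-administered cocaine and of saline mice. Members were all listed cytosines whose sequence is not one of chromosomes 1 to 19, X, Y or M. Of the 3128 such cytosines listed in any library, 1081 were listed in all 8 libraries and were used, which is 0.0715% of the 1511888 cytosines common to all 8. They lay on 28 contigs. An unplaced contig (named Un) has no assigned chromosome, and a random contig carries the name of its chromosome but has no position on it. Of the members, 670 lay on 17 unplaced contigs and 411 on 11 random contigs.

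The assay, reduced representation bisulfite sequencing, reads restriction fragments rich in CpGs after unmethylated cytosines have been converted. The cocaine group held 4 male C57 BL/6 mice from a self-administration experiment, and the saline group held 4 male C57 BL/6 mice of that experiment. The tissue was the dissected dDG DGC layer, taken to be the layer of granule cells in the dorsal dentate gyrus, with 1 library per mouse. The labels give no age, dose or length of treatment.

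Contigs that could not be placed in an assembly are often made of repeats or recent duplications, because near-identical copies cannot be joined to a unique position. Reads from many genomic copies can then align to the few copies that the assembly holds, so that coverage of such a sequence depends on the number of copies as well as on the library. In somatic cells, tandem repeats near centromeres are typically methylated, while CpG-dense islands at gene starts are typically not.

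The libraries listed 1844706 to 2236384 cytosines each, with 87964952 to 141775386 reads summed over them. Median coverage per cytosine was 34 to 50 reads in the cocaine libraries and 40 to 66 reads in the saline libraries. Saline 1 stood apart: among cytosines with a pooled level of 20% to 80% and 30 to 40 reads, 14.3% were read as fully methylated or fully unmethylated, against 0.371% to 2.87% in the other 7 libraries. Of 4 granule cell marker genes, 3 had covered promoter windows (Prox1, C1ql2 and Dsp), at mean levels of 0.134% to 0.694%. Of 11 markers of other cells, 3 had covered windows (Gad2, Cldn5 and Gfap), at 0.140% to 45.6%, so methylation at these windows did not separate the cell types. The 1822 common cytosines on chromosome Y accord with the male label.

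Fewer contig cytosines than others were shared by all libraries. All 8 libraries listed 34.6% of the contig cytosines listed in any, against 48.7% of those on chromosomes 1 to 19, X, Y and M. The number listed was 2096, 1732, 1970 and 1802 in cocaine 1, 2, 3 and 4, and 2024, 1378, 1554 and 1605 in saline 1, 2, 3 and 4. The cocaine and saline libraries overlapped, through saline 1. Of the reads summed over the cytosines each library listed, the contigs took 0.183%, 0.162%, 0.185% and 0.187% in cocaine 1 to 4. The shares were 0.159%, 0.160%, 0.148% and 0.153% in saline 1 to 4. All 4 cocaine shares lay above all 4 saline shares, by a small margin for cocaine 2. These shares depend on which cytosines each library listed. Cocaine 1, 3 and 4, with the highest shares, also had the lowest median coverage, at 34 to 38 reads. The part of library coverage in the shares was not tested. One contig, JH584304, held 405 of the 1081 common cytosines, which is 37.5%, so its values weigh most in any mean over contig cytosines.

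The contig cytosines were more methylated than the rest of the genome covered by this assay. Their mean level, each cytosine weighted equally, was 67.2%, 66.4%, 64.6% and 67.3% in cocaine 1, 2, 3 and 4, and 67.1%, 67.2%, 66.6% and 67.5% in saline 1, 2, 3 and 4. On chromosomes 1 to 19 the mean was 37.2% ± 0.701 in cocaine mice and 37.9% ± 0.171 in saline mice (SD, n = 4 each). The 2 groups of contigs were alike in level, with 66.3% in cocaine and 66.8% in saline mice on unplaced contigs, and 66.7% in cocaine and 67.6% in saline mice on random contigs. Among whole chromosomes only Y, itself rich in repeats, was higher, at 83.9% ± 1.08 in cocaine mice and 84.5% ± 0.523 in saline mice.

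The higher mean came from a different mixture of levels. On the contigs, 594 cytosines (54.9%) had a mean level above 80%, 278 (25.7%) lay between 20% and 80%, and 209 (19.3%) lay below 20%. On chromosomes 1 to 19, X, Y and M the same classes held 29.8%, 17.3% and 52.9%. Most intermediate cytosines lay on JH584304, where they made up 160 of 405 (39.5%). On GL456392 they made up 12 of 25 (48%), and on GL456216 4 of 157 (2.55%). At cytosines of intermediate level, the median SD between the 8 mice was 11.4 points on the contigs at a median of 50.6 reads, and 13.7 points on the primary chromosomes at a median of 49.4 reads. Contig cytosines were thus not more variable between mice than others at like depth.

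Both strands of 1 CpG usually had the same level. Among 159 contig CpGs with both strands listed in all libraries, 88 of them on JH584304, the median difference between strands was 3.16 points, and 143 pairs differed by at most 10 points. Pearson's r over these 159 pairs was 0.95, given as a description, since the paired strands share the CpG and often the fragment. The 2 pairs that differed by more than 20 points both lay on GL456392, 99 bases apart. At base 9992 the plus strand was at 72.9% and the minus strand, at base 9993, at 5.52%. At base 10091 the order was turned, with 3.02% on the plus strand and 88.2% on the minus strand at base 10092. In the minus strand at base 9993 the level was 0%, 5.13%, 15.4% and 10.3% in cocaine 1 to 4, and 0%, 13.3%, 0% and 0% in saline 1 to 4. The minus strand of this CpG was thus low in each mouse of both groups. It rested on a mean of 51 reads per mouse, against 247 on the plus strand.

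**Figure D1:**
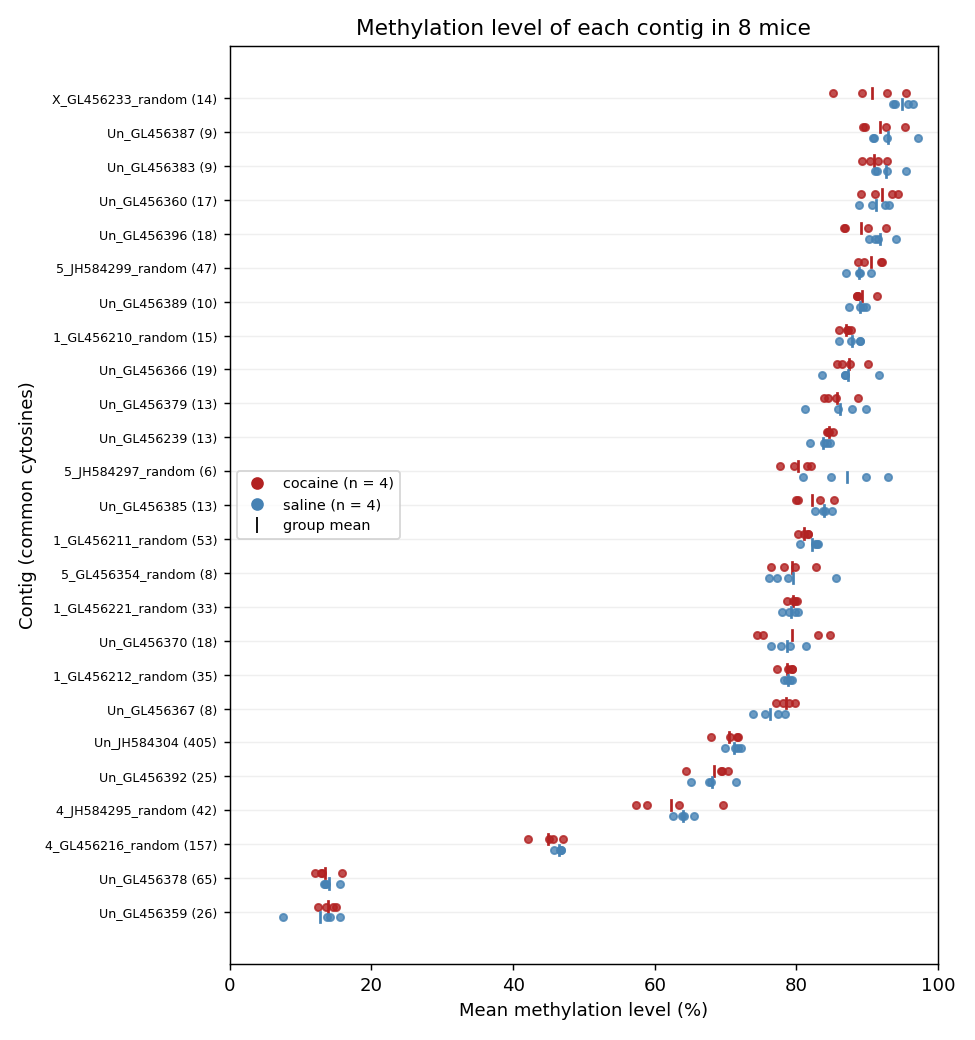
Mean methylation level in percent (x axis) of each contig with at least 5 common cytosines (y axis, number of cytosines in brackets) in each of 8 mice. Points are mice, cocaine above saline in each row, and vertical marks are group means. Most contigs lie above 75%, GL456378 and GL456359 lie near 13%, and the cocaine and saline points overlap on every contig.

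Contigs differed far more from each other than mice did. Of the 25 contigs with at least 5 common cytosines, the 15 with fewer than 20 cytosines had mean levels between 77.4% and 92.8%. Of the 10 contigs with at least 20 cytosines, 4 were highly methylated. JH584299, a random contig of chromosome 5, was at 90.5% ± 1.69 in cocaine and 88.8% ± 1.41 in saline mice over 47 cytosines. GL456211, of chromosome 1, was at 81.1% ± 0.636 in cocaine and 82.2% ± 1.22 in saline mice over 53 cytosines. Another 2 contigs of the same chromosome were close to it. GL456221, with 33 cytosines, was at 79.5% ± 0.588 in cocaine and 79.2% ± 1.01 in saline mice, and GL456212, with 35 cytosines, was at 78.7% ± 0.985 in cocaine and 78.8% ± 0.458 in saline mice.

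The other contigs were intermediate or low. JH584304 was at 70.5% ± 1.74 in cocaine and 71.2% ± 0.989 in saline mice, and GL456392, with 25 cytosines, at 68.4% in cocaine and 68.0% in saline mice. JH584295, of chromosome 4, was at 62.3% ± 5.50 in cocaine and 64.0% ± 1.21 in saline mice over 42 cytosines. GL456216, also of chromosome 4, was at 45.0% ± 2.11 in cocaine and 46.5% ± 0.444 in saline mice over 157 cytosines. The lowest were GL456378, at 13.4% ± 1.70 in cocaine and 14.0% ± 1.04 in saline mice over 65 cytosines, and GL456359, at 13.9% ± 1.13 in cocaine and 12.7% ± 3.55 in saline mice over 26 cytosines. These means are not uniform levels, and several contigs held stretches of very different level.

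The contig GL456216 showed such steps. Between bases 15761 and 17431 (mm10), 71 cytosines in 4 runs had a mean level of 0.368%, with no mouse above 1.66%. Between bases 34475 and 36086 of the same contig, 55 cytosines had a mean level of 92.4%. A short run from base 30714 to base 30802, with 12 cytosines, stood at 94.7%. Of these stretches, the run from base 33262 to base 33418 with 11 cytosines, varied most between mice. Its level was 18.4%, 10.5%, 3.26% and 19.7% in cocaine 1 to 4, and 3.54%, 25.2%, 19.5% and 25.1% in saline 1 to 4, and the groups overlapped.

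The contig GL456378 held an unmethylated, CpG-dense run. From base 27329 to base 27824 it had 53 CpGs with a common cytosine in 496 bp, or 10.7 per 100 bp. This run held 54 of the 65 common cytosines of the contig. The mean level of this run was 1.45%, ranging from 0.196% to 4.21% over mice. The 11 cytosines outside it averaged 73.9%. GL456359 had a less CpG-dense low stretch from base 19327 to base 20184, where 23 cytosines averaged 13.5%, between 8.54% in saline 1 and 15.5% in saline 4.

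On JH584295 the level fell along the contig. It was 87.3% from base 412 to base 806, 61.6% from base 1369 to base 1556, and 12.0% from base 1665 to base 1948. The middle stretch carried the spread of this contig between cocaine mice. It was at 63.3%, 54.3%, 43.4% and 75.8% in cocaine 1 to 4, and at 67.9%, 56.9%, 66.2% and 64.5% in saline 1 to 4. The saline values all lay within the range of the cocaine values.

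Over all contigs, 120 runs of at least 3 CpGs with gaps of at most 100 bp were formed. Of these, 78 had a mean level above 80%, 33 lay between 20% and 80%, and 9 lay below 20%. Counting only CpGs with a common cytosine, median CpG density was 6.37 per 100 bp in the low runs. It was 4.76 in the intermediate runs and 5.69 in the high ones. Genes could not be placed on these contigs, because the gene table used here lists 17 genes on unknown chromosomes, 13 pseudogenes and 4 long noncoding RNAs, without a contig name. Which genes, if any, the low runs belong to is therefore not given.

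Coverage, like level, differed widely between contigs. Coverage is given as the mean reads per common cytosine divided by the mean of chromosomes 1 to 19 in the same library. Over the 8 mice it averaged 4.39 on JH584304, 2.76 on GL456392, 2.53 on GL456383, 2.46 on GL456239, 2.29 on GL456370 and 2.05 on GL456367. The contigs of chromosome 1 lay between 1.08 and 1.64. GL456216 and GL456378, which hold the unmethylated runs, were close to the autosomes, at 0.954 and 1.12. GL456233, assigned to chromosome X, was lowest at 0.443, against 0.612 for chromosome X itself, which male mice carry once.

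The typical contig cytosine was not deep. The median coverage of a contig cytosine was 55.4 reads, against 56.6 on the primary chromosomes. Among the contig cytosines, 50 had more than 10 times the autosomal median coverage. All 50 lay on JH584304, where they made up 12.3% of its common cytosines, against 893 cytosines, or 0.0591%, on the primary chromosomes.

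**Figure D2:**
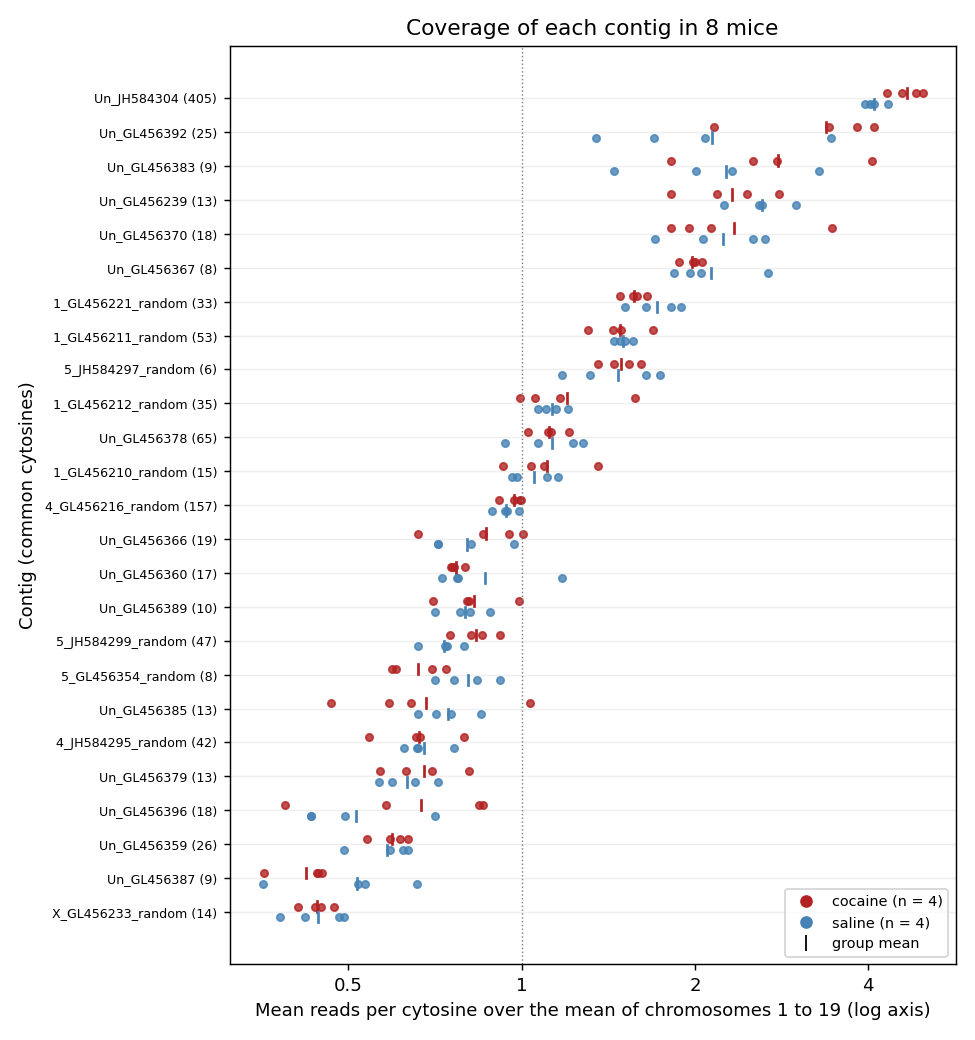
Mean reads per common cytosine divided by the mean of chromosomes 1 to 19 in the same library (x axis, log axis) for each contig with at least 5 common cytosines (y axis, number of cytosines in brackets). Points are mice, cocaine above saline in each row, vertical marks are group means and the dotted line is the autosomal mean. JH584304 is covered most, at 3.95 to 4.97 times the autosomal mean, and its highest 3 values are cocaine mice.

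The deep cytosines of JH584304 lay in 3 runs. The first, from base 34037 to base 34528, had 39 cytosines with a mean of 1053 reads. The second, from base 59027 to base 59309, had 25 cytosines with a mean of 1138 reads. The third, from base 59502 to base 60114, had 39 cytosines with a mean of 763 reads. Each run also held shallow cytosines, so these means mix depths. Reads per mouse ran from 68.25 to 2106 in the first run, 20.6 to 3998 in the second and 24.6 to 2203 in the third. The runs differed sharply in level. The first was methylated, at 86.9% with a range over mice of 83.8% to 88.5%, while the other two together were at 26.9%, with a range of 22.0% to 33.0%. Mean coverage was 15.7 times the autosomal mean in the methylated run and 13.7 times in the low runs. The runs were picked for a mean coverage above 10 times the autosomal mean, so their high coverage was set by that choice.

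Within the low runs, neighbouring cytosines on the same strand and of near-equal depth kept different levels. In order along the second run, the first plus-strand cytosine, at 3940 reads per mouse, was at 66.3% ± 2.69 in cocaine and 68.5% ± 1.72 in saline mice. The next plus-strand one, at 3984 reads, was at 22.3% ± 2.55 in cocaine and 26.0% ± 2.31 in saline mice. The third, at 3998 reads, was at 34.3% ± 3.05 in cocaine and 38.4% ± 2.05 in saline mice. The steps between these positions were several times the spread between mice and recurred in both groups.

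**Figure D3:**
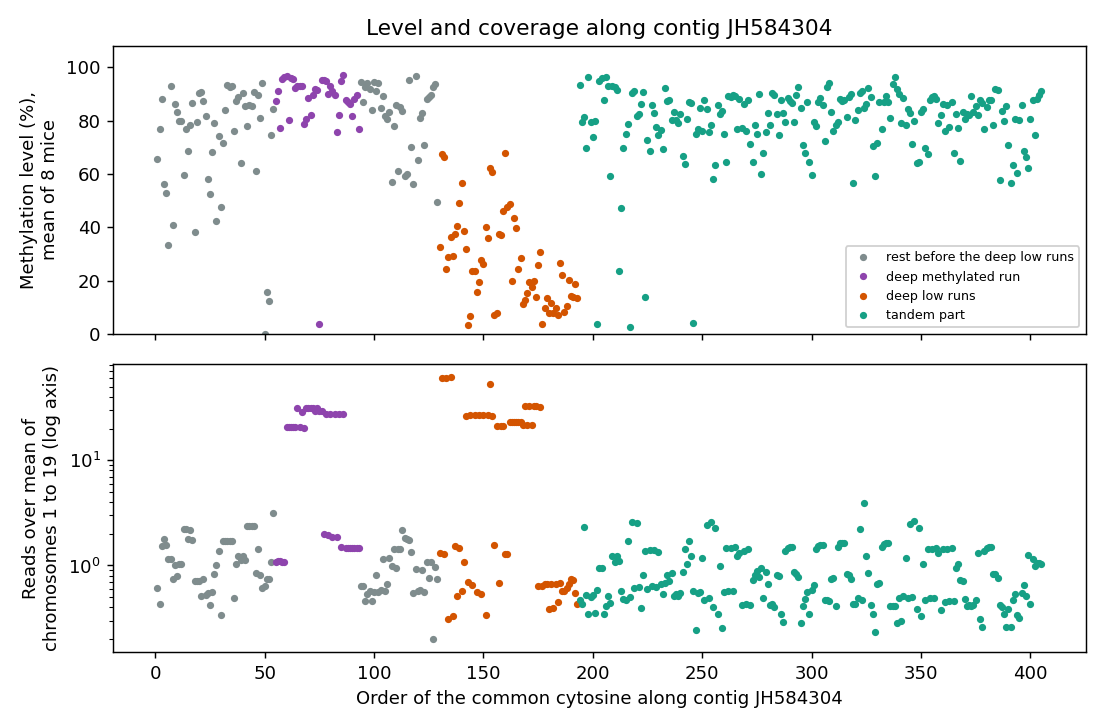
Mean methylation level of 8 mice in percent (upper panel) and reads over the mean of chromosomes 1 to 19 on a log axis (lower panel) for the 405 common cytosines of JH584304, in their order along the contig. Colours mark the deep methylated run, the deep low runs, the stretch before them and the tandem stretch after them. High coverage falls in the deep runs, and level drops at the deep low runs and returns to about 79% in the tandem stretch.

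A spacing recurred among the cytosines of JH584304, mostly beyond the deep low runs. Among all 1484 cytosines listed on this contig in any library, pairs on the same strand were counted at every distance from 100 bp to 2000 bp. The most frequent distance up to 1000 bp was 234 bp, with 143 pairs. The next distance, 233 bp, had 54 pairs, and distances 6 to 15 bp away on either side had a median of 11.5 and a maximum of 46. Peaks recurred near its multiples, among them 92 pairs at 468 bp, 117 at 702 bp, 104 at 935 bp, 98 at 1403 bp and 94 at 1871 bp. As background, the mouse major satellite, the main tandem repeat near the centromeres, has a unit of 234 bp. Whether JH584304 holds that satellite was not tested, since no contig sequence was used here.

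The spacing was not seen to the same degree elsewhere. On the other contigs together 16 pairs stood 234 bp apart and 21 pairs 235 bp apart. Distances 6 to 15 bp away from 234 bp had a median of 9 and a maximum of 15 there. At 468 bp these contigs had 7 pairs, against a maximum of 13 at distances 6 to 15 bp away. On chromosomes 1 to 19 there were 31669 such pairs, against a median of 30738.5 and a maximum of 31788 at distances 6 to 15 bp away. On JH584304 itself the spacing was most frequent in the tandem stretch from base 60120 to base 114438. This stretch was taken as everything listed after the deep low runs and was not bounded by the spacing. Of its 928 listed cytosines, 348 (37.5%) had a partner within 1 bp of that distance. The share was 16% of 75 cytosines in the deep low runs, 10.7% of 56 in the deep methylated run and 3.06% of 425 in the rest of the stretch before them. Most cytosines of the tandem stretch thus had no such partner, and the name stands for this spacing only. A share expected from the number of cytosines listed was not computed.

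**Figure D4:**
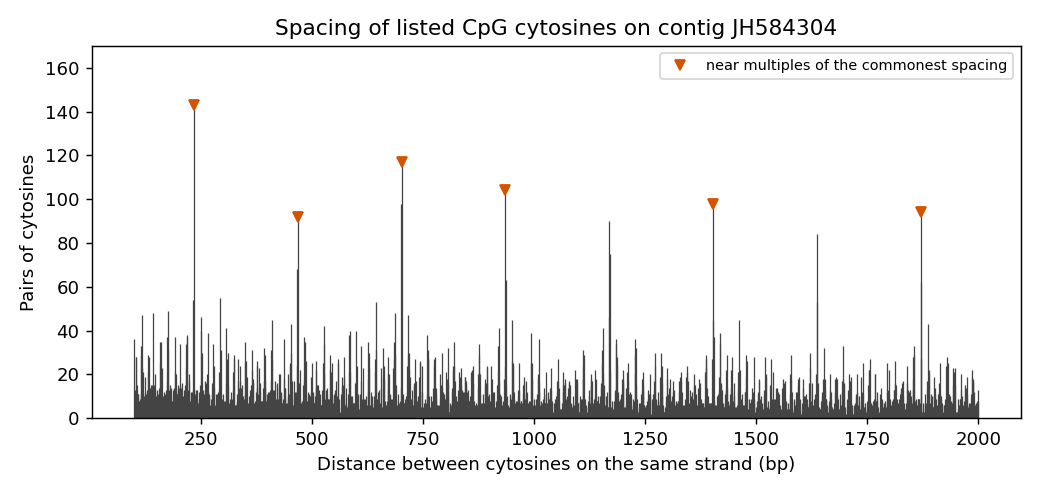
Number of pairs of listed CpG cytosines on the same strand of JH584304 (y axis) at each distance in bp (x axis), over cytosines listed in any library. Markers stand at 6 of the peaks near multiples of the commonest spacing, of which the first is 234 bp with 143 pairs.

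A longer distance also stood out on JH584304, picked as the most frequent of those counted above 1000 bp. At a distance of 25248 bp there were 195 same-strand pairs, against at most 40 at distances 6 to 15 bp away, and 47 of the pairs had both cytosines listed in all 8 libraries. The median difference in level between the 2 members of these 47 pairs was 2.27 points, and 45 pairs differed by at most 10 points. Of the 212 common cytosines of the tandem stretch, 125 exceeded 80%, and arbitrary pairs were not compared as a background. Coverage of the 2 members differed by at most 1.5 times in 43 of the 47 pairs, and by up to 16.5 times in the other 4. As examples of close pairs, at bases 78022 and 103270 the levels were 89.2% and 87.8% at 36.3 and 31.9 reads per mouse. At bases 78609 and 103857 the levels were 76.7% and 79.2% at 78.5 and 84.5 reads per mouse. The pair with the largest difference in level, 59.3 points, also differed most in coverage. It joined base 34507 and base 59755, which lie in the methylated and the low deep run and outside the tandem stretch.

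The tandem stretch was methylated and shallow. Its 212 common cytosines were at 80.2%, 80.03%, 75.4% and 79.4% in cocaine 1 to 4, and at 79.2%, 79.4%, 78.7% and 80.8% in saline 1 to 4. The mean was 78.8% ± 2.29 in cocaine and 79.5% ± 0.900 in saline mice, with overlapping values. Its coverage was 1.35, 0.706, 1.17 and 1.20 times the autosomal mean in cocaine 1 to 4, and 1.03, 0.553, 0.403 and 0.606 times in saline 1 to 4. In the tandem stretch 3 of the cocaine mice lay above every saline mouse, and cocaine 2 lay below saline 1.

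Listing in the tandem stretch went the same way. It was 737, 476, 585 and 582 cytosines in cocaine 1 to 4, and 575, 293, 392 and 424 in saline 1 to 4. The means were 595 ± 107 in cocaine mice and 421 ± 117 in saline mice (SD, n = 4 each), and the groups overlapped through cocaine 2 and saline 1. These values moved with library coverage. The 4 libraries with a median coverage of 34 to 40 reads, which are cocaine 3, cocaine 1, cocaine 4 and saline 1, had the 4 highest coverage ratios. The other 4, at 47 to 66 reads, had the 4 lowest, cocaine 2 among them. The part of library coverage in this pattern was not tested.

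**Figure D5:**
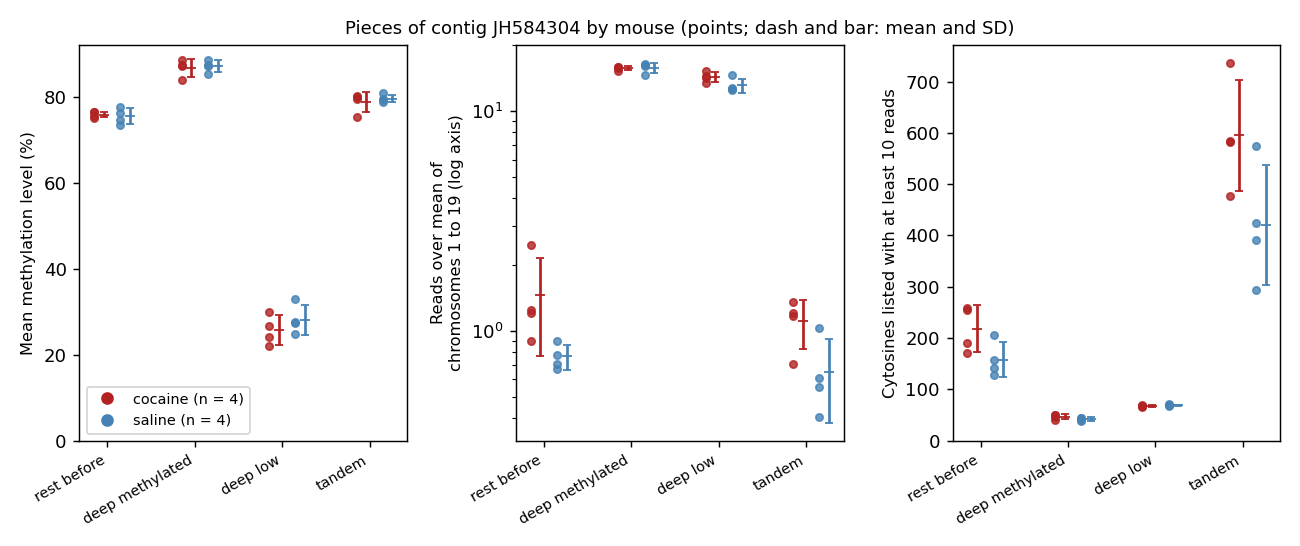
Methylation level in percent (left), reads over the mean of chromosomes 1 to 19 on a log axis (middle) and number of listed cytosines (right) in 4 pieces of JH584304. Points are mice, with cocaine left of saline, and dashes with bars are the mean and SD of 4 mice. The tandem stretch has 595 ± 107 listed cytosines in cocaine and 421 ± 117 in saline mice, and the deep runs have near-equal numbers in both.

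The cocaine and saline mice were then compared. Averaged over all contig cytosines, the level was 66.4% ± 1.26 in cocaine mice and 67.1% ± 0.388 in saline mice (SD, n = 4 each), a difference of -0.684 points. The difference on chromosomes 1 to 19 was -0.737 points, so the contigs and the autosomes differed by like amounts. The contig level minus the autosomal level was 30.3, 29.1, 28.3 and 29.3 points in cocaine 1 to 4, and 29.4, 29.3, 28.6 and 29.4 points in saline 1 to 4, which leaves a difference of 0.0528 points. Cocaine 3 had the lowest level both on the contigs and on chromosomes 1 to 19. Without it the contig difference was -0.0880 points.

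No contig was called different in level. Limma was run on the mean level of all 47 sequences, and a call needed at least 5 points of difference with an adjusted p under 0.05. By this rule 0 of 25 contigs passed, with a background of 0%. One contig had an unadjusted p under 0.05, against 12.8% of all sequences. This was JH584297, a random contig of chromosome 5 with 6 cytosines. Its level was 81.5%, 79.6%, 82.0% and 77.6% in cocaine 1 to 4, and 92.9%, 80.9%, 89.8% and 84.9% in saline 1 to 4. The groups overlapped, through cocaine 1, cocaine 3 and saline 2, and the difference was -6.91 points (standard error 2.55, adjusted p = 0.185 in limma).

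Directions were mixed among the contigs. The mean was lower in cocaine mice on 15 of the 25 contigs and on all 22 chromosomes tested, with medians of -0.553 points on contigs and -0.731 points on chromosomes. Chromosomes are far larger, and none was called. On the contigs with most cytosines the differences were less than 2 standard errors. GL456216 differed by -1.52 points (standard error 0.937, adjusted p = 0.254 in limma) and JH584304 by -0.749 points (standard error 0.851, adjusted p = 0.573). JH584299 was higher in cocaine mice by 1.74 points (standard error 1.02, adjusted p = 0.244). The difference on JH584304 was 0.0802 points without cocaine 3.

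Of the contigs, JH584304 had the smallest p for a difference in coverage, though not the largest fold change. Its ratio to the autosomes was 4.57, 4.32, 4.97 and 4.84 in cocaine 1 to 4, and 4.09, 4.33, 3.95 and 4.03 in saline 1 to 4. Here 3 cocaine mice lay above every saline mouse, and cocaine 2 lay just below saline 2. In edgeR's quasi-likelihood test on reads summed per sequence, the log2 fold change was 0.19 (adjusted p = 0.138), so it was not called. DESeq2 gave 0.19 with an adjusted p of 0.0120, the only call of a contig, and over all alternatives the adjusted p ran up to 0.396.

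No contig was called by coverage in edgeR. Of 25 contigs 0 passed an adjusted p under 0.05, against a background of 2.13%, and 2 had an unadjusted p under 0.05, against 8.51% of all sequences. The other was GL456354, a random contig of chromosome 5 with 8 cytosines and a log2 fold change of -0.29 (adjusted p = 0.490 in edgeR). Its ratio was 0.595, 0.699, 0.606 and 0.741 in cocaine 1 to 4, and 0.919, 0.708, 0.837 and 0.763 in saline 1 to 4. Only cocaine 4 exceeded a saline mouse there. Mitochondrial DNA was the 1 sequence called, higher in cocaine mice with a log2 fold change of 0.71 (adjusted p = 0.0250).

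Within JH584304 the pieces contributed unequally to coverage. The deep methylated run was at 15.7 ± 0.356 times the autosomal mean in cocaine and 15.8 ± 0.827 times in saline mice. The deep low runs were at 14.3 ± 0.729 times in cocaine and 13.1 ± 0.969 times in saline mice. The tandem stretch was at 1.11 ± 0.278 times in cocaine and 0.647 ± 0.267 times in saline mice, and the stretch before the deep low runs at 1.45 ± 0.687 times in cocaine and 0.762 ± 0.102 times in saline mice. The last cocaine mean rests on cocaine 3, at 2.46. The pieces were bounded by the deep runs, which were set from coverage, so no test is given for them.

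The contig GL456392 varied most in coverage between mice. Its ratio was 4.10, 2.16, 3.42 and 3.82 in cocaine 1 to 4, and 3.45, 1.70, 1.35 and 2.08 in saline 1 to 4. Saline 1 lay among the cocaine mice and cocaine 2 near the other saline mice, in the same split by library coverage as in the tandem stretch. The log2 fold change was 0.66 (unadjusted p = 0.065 in edgeR), and the part of library coverage was not tested. GL456396 showed the same split of libraries, with 0.856, 0.388, 0.845 and 0.582 in cocaine 1 to 4, and 0.708, 0.431, 0.430 and 0.494 in saline 1 to 4.

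At single cytosines 784 contig members had a pooled level from 5% to 95% and were tested within the 666812 cytosines of the whole table. In the quasi-binomial test 0 of 784 were called, against a background of 0.00015%, with a lowest adjusted p of 0.451. Unadjusted p under 0.05 was reached by 30 cytosines lower in cocaine mice and 18 higher, which is 3.83% and 2.30% of those tested, against 4.12% and 1.99% of all cytosines. In limma on logit values 0 were called and 30 had an unadjusted p under 0.05. The groups did not overlap at 22 of 784 cytosines lower and 7 of 784 higher in cocaine mice. Over all cytosines this held for 13200 and 6331 of 666812 (1.98% and 0.949%). The median difference was -1.01 points on the contigs and -1.29 points over all cytosines, and the mean was lower in cocaine mice at 57.7% of contig cytosines and 56.9% of all. By unadjusted p and by direction the contig cytosines were thus close to the background. Their share with non-overlapping groups lower in cocaine mice was somewhat above it, which was not tested.

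The strongest single cytosines lay in the deep low runs of JH584304. On the minus strand at base 59293 the level was 32.4%, 24.6%, 28.5% and 37.2% in cocaine 1 to 4, and 44.0%, 41.8%, 38.4% and 39.5% in saline 1 to 4, at 1520 to 2324 reads. Every cocaine mouse lay below every saline mouse. The difference was -10.2 points (adjusted p = 0.451 in the quasi-binomial test). On the plus strand at base 59308, close by, the level was 55.5%, 59.3%, 56.7% and 61.4% in cocaine 1 to 4, and 67.4%, 68.9%, 62.6% and 66.5% in saline 1 to 4, at 1825 to 4949 reads. Again the groups did not overlap, and the difference was -8.16 points (adjusted p = 0.547).

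The strongest cytosines in the other direction were shallow. At base 115790 of GL456211 (minus strand) the level was 100%, 96.3%, 100% and 100% in cocaine 1 to 4, and 74.1%, 75.8%, 100% and 55.6% in saline 1 to 4, at 18 to 43 reads. Saline 3 lay among the cocaine mice, and the difference was 22.7 points (adjusted p = 0.690). At base 61888 of JH584304 (minus strand) the level was 91.9%, 92.3%, 92.2% and 93.3% in cocaine 1 to 4, and 20%, 72.7%, 94.4% and 77.8% in saline 1 to 4, at 13 to 51 reads. The difference of 26.2 points (adjusted p = 0.710) rested in large part on saline 1 and was 10.8 points without it.

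The deep low runs leaned to lower levels in cocaine mice. Of their 62 tested cytosines, 49 had a mean that was lower in cocaine mice, 12 reached an unadjusted p under 0.05 in that direction and 2 in the other, and 5 had non-overlapping groups, all lower in cocaine mice. Their median difference was -3.59 points. Of all tested cytosines, 56.9% had a lower mean in cocaine mice, and 4.12% were lower and 1.99% higher at an unadjusted p under 0.05. Non-overlapping groups made up 1.98% (lower) and 0.949% (higher) of all tested cytosines. Cytosines of the deep low runs reached 3998 reads per mouse, against a median of 56.6 on the primary chromosomes, so these shares do not compare like depths. Cytosines of the deep low runs share fragments and are not independent of each other. The runs were singled out after their values were seen. In the rest of JH584304, 173 of 323 tested cytosines were lower, with 5 at an unadjusted p under 0.05 in each direction and a median difference of -0.523 points. On the other contigs 230 of 399 were lower, with 13 lower and 11 higher at that threshold and a median of -1.21 points.

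Averaged with equal weight over their cytosines, the deep low runs did not separate the groups. Their mean level, cytosines weighted equally, was 26.8%, 22.0%, 24.0% and 29.98% in cocaine 1 to 4, and 27.5%, 33.0%, 24.7% and 27.4% in saline 1 to 4. Cocaine 4 lay above 3 of the saline mice. The means were 25.7% ± 3.47 in cocaine and 28.1% ± 3.46 in saline mice, a difference of -2.47 points. This mean gives shallow cytosines the same weight as deep ones. At each deep cytosine of these runs, at 1386 to 3998 reads per mouse, the cocaine mean lay below the saline mean. Deep cytosines share fragments and were split from shallow ones after their values were seen, so their common direction is no test. Shallow cytosines went both ways, and higher cocaine means occurred only among them, at 20.6 to 79 reads per mouse.

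Runs of cytosines were tested as regions, by the same model on summed reads. Of 120 contig regions, 109 passed the filter on level and were tested among 92593 regions, and 0 were called in the quasi-binomial test, against a background of 0%. Unadjusted p under 0.05 was reached by 3 contig regions lower in cocaine mice (2.75%) and 1 higher (0.917%), against 4.57% and 1.08% of all regions. In limma on logit values 0 were called and 3 had an unadjusted p under 0.05. The groups did not overlap in 3 contig regions lower and 1 higher in cocaine mice, against 2.59% and 0.701% of all regions. The lowest adjusted p was 0.876, and the median difference was -0.491 points on contigs and -1.06 points over all regions.

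Among the regions with a lower level in cocaine mice, the last deep run of JH584304, from base 59502 to base 60114, had the smallest p. Its pooled level was 22.3%, 20.9%, 20.6% and 26.2% in cocaine 1 to 4, and 26.0%, 30.1%, 25.1% and 27.3% in saline 1 to 4. Only cocaine 4 lay above a saline mouse, and the difference was -4.62 points (adjusted p = 0.876 in the quasi-binomial test). The adjacent second run was at 37.1%, 34.3%, 33.0% and 41.9% in cocaine 1 to 4, and at 43.8%, 44.4%, 36.3% and 40.6% in saline 1 to 4, with overlapping groups.

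A region of GL456212 (bases 150390 to 150526, 6 cytosines) was at 74.9%, 81.5%, 82.5% and 83.1% in cocaine 1 to 4, and at 93.9%, 83.4%, 87.4% and 85.5% in saline 1 to 4. The groups did not overlap, by a narrow margin between cocaine 4 and saline 2, and the difference of -7.03 points was -4.92 points without saline 1 (adjusted p = 0.876). The other 2 lower regions were on JH584297 (bases 173475 to 173566), at 79.8% ± 2.54 in cocaine and 86.4% ± 5.58 in saline mice, and on JH584304 (bases 35254 to 35331), at 89.9% ± 5.73 in cocaine and 93.5% ± 5.46 in saline mice. Both had overlapping groups and an adjusted p of 0.876. The last of them differed by -3.57 points, and by -0.811 points without cocaine 3.

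Among the regions with a higher level in cocaine mice, one of 3 cytosines on JH584299 (bases 679204 to 679298) had the smallest p of all contig regions. It was at 87.4%, 92.8%, 90.5% and 98.9% in cocaine 1 to 4, and at 45.5%, 84.2%, 74.6% and 73.2% in saline 1 to 4. The groups did not overlap, and saline 1 rested on 11 reads per cytosine. The difference was 23.0 points (adjusted p = 0.876) and 15.1 points without saline 1.

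The other 3 higher regions had overlapping groups. On JH584304, bases 30493 to 30527 were at 87.5% ± 4.15 in cocaine and 82.6% ± 7.46 in saline mice, and bases 8743 to 8841 at 74.9% ± 2.55 in cocaine and 72.3% ± 4.35 in saline mice. On GL456370, bases 7992 to 8161 were at 73.8% ± 12.5 in cocaine and 66.4% ± 9.14 in saline mice. Their adjusted p values in the quasi-binomial test were 0.899, 0.924 and 0.916 in this order. Each of these differences was smaller than the SD of at least one group.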

How the data were processed

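The authors deposited 1 file per mouse that lists each CpG cytosine by sequence, base and strand with its methylation level and its coverage. The deposited level is a fraction from 0 to 1, named as a percent per the file headers, and was turned into percent. Coverage was deposited as a count of reads, at least 10 per cytosine. Level times coverage lay within 5e-07 times the coverage of a whole number at 100% of cytosines, so methylated reads were recovered. Reads were processed with bcl2fastq and Bismark 22.1 against mm10, per the submitters' processing notes. How reads with several alignments and duplicate reads were treated is not given in the sources used here, and no molecular identifiers are named. Coverage of repeats depends on how reads with several alignments were treated, and copies of 1 molecule count as separate reads. Positions are as the files give them.

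Groups and numbers came from the titles. The design text gives 4 mice per group. The p-values of regions and sequences rest on the spread between these mice, moderated toward that of all regions or sequences. No library repeats another: the lowest chi-square per cytosine over pairs of libraries was 2.91. Cytosines with at least 10 reads in all 8 libraries were used, strands apart. Cytosines and regions (runs of 3 or more CpGs no more than 100 bp apart) with a pooled level of 5% to 95% were tested over the whole table by quasi-binomial regression on group. The dispersion was moderated with limma's squeezeVar (limma 3.58.1, R 4.3.3) and p adjusted by Benjamini-Hochberg. They were called at an adjusted p under 0.05 and at least 10 points. At single cytosines each dispersion was replaced by the trend over cytosines, so those p-values do not measure each cytosine's own spread between mice. Sequences with at least 5 common cytosines were tested by limma on mean level and by edgeR 4.0.16 on summed reads (TMM scaling), with DESeq2 1.42.0 as an alternative. The tests were checked on simulated data. The members, marker genes and tests were chosen with earlier results of these data known. Contigs with at least 20 common cytosines were named, with the 4 regions and 2 cytosines of smallest p per direction. Other contigs, runs and pieces singled out were chosen after their values were seen. Other settings tried were a minimum of 20 reads, no filter on level, unmoderated dispersion, limma on logit values, merged strands, gaps of up to 200 bp, weighting by reads and leaving out libraries.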

Additional observations from a re-analysis of the deposited data

Results flagged for a closer look

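In 96 groups of 4 mice the highest or lowest value was compared with the others, and 6 groups had 1 mouse apart from the other 3. Chance alone marks about 1 in 20 groups. Saline 2 was apart 2 times. Its level on GL456378 was 15.5%, with the other saline mice at 13.4% to 13.7%, and its coverage ratio in the deep low runs of JH584304 was 14.5, with the others at 12.5 to 12.7.

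Cocaine 2 was apart at the cytosine at base 115790 of GL456211, at 96.3% with the other 3 cocaine mice at 100%, a gap of 1 read on 27. It was also apart in the share of reads on contigs, at 0.162% with the others at 0.183% to 0.187%. Cocaine 3 was apart in the level of the tandem stretch of JH584304, at 75.4% with the other cocaine mice at 79.4% to 80.2%. Saline 3 was apart in the contig level minus the autosomal level, at 28.6 points with the other saline mice at 29.3 to 29.4 points.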

How the results depend on the processing

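No contig cytosine, region or contig level was called under any alternative run, with 30 to 68 cytosines, 1 to 9 regions and 0 to 4 contigs at an unadjusted p under 0.05. By coverage DESeq2 called 1 contig, JH584304. The difference in mean contig level ran from -1.07 points weighted by reads to 0.0528 points after subtracting the autosomal level, and was -0.000903 points over every cytosine listed in each library. It was -0.646 points without JH584304 and -0.749 points on that contig alone, both chosen after seeing the data. Leaving out 1 mouse at a time gave -0.995 to -0.0880 points.

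Some contigs turned direction, none with a call on either side, and the cause was not tested. With at least 20 reads the level difference was -0.62 points on JH584299 and -0.92 points on GL456359. Weighted by reads it was 1.10 points on GL456216, and 2 contigs moved further in their own direction, to 5.41 points on GL456392 and -2.62 points on GL456212. Without saline 1 and cocaine 3 the level difference was 0.0875 points on JH584304, -0.48 points on GL456359 and 1.37 points in the JH584304 region at base 35254. The log2 coverage change was then 0.0386 on GL456211, 0.13 on JH584295 and -0.0759 on GL456359. Leaving out 1 mouse at a time gave level differences of -1.21 to 0.0802 points on JH584304, -0.569 to 2.10 on GL456359, -0.590 to 1.70 on GL456392, -0.396 to 0.306 on GL456212 and -0.112 to 0.653 on GL456221. It gave log2 coverage changes of -0.0799 to 0.0421 on GL456211, -0.0690 to 0.163 on GL456212, -0.117 to 0.0616 on JH584295, -0.0427 to 0.0766 on GL456359 and -0.0857 to 0.0588 on GL456378. Without cocaine 4, JH584295 had a level difference of -4.13 points with an adjusted p of 0.0428, under the 5 points a call needs.

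Same-numbered mice did not deviate together (correlations of -0.0169, -0.0105, 0.00675 and 0.0771), so the numbers were not taken as pairs. With the replicate number as a block, 0 contig cytosines, regions and contigs were called, and 48 cytosines, 5 regions, 2 contigs by level and 2 by coverage had an unadjusted p under 0.05. Depth limits single cytosines, many of which rest on 10 to 50 reads per mouse, and contigs with few cytosines rest on few fragments. Intervals from reads would cover counting error only.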
